A study of Mus musculus with 6 samples.

Results

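Keratins are the intermediate filament proteins of epithelial cells, and the keratin genes of mouse dental pulp tissue were compared here between wild-type (WT) and Mmp13-/- mice. A gene was included when the deposited table gave it as protein-coding and its symbol was Krt followed by digits alone, which took 50 of the 53342 genes in the table. Mmp13 encodes a collagenase that degrades matrix collagen. The WT group held 3 mice and the Mmp13-/- group, labelled MMP13KO, held 3 mice, all of the C57BL/6 strain and 3 months old, and the study's methods describe the animals as male and the mutants as homozygous for a germline deficiency. RNA was sequenced from pulp taken out of extracted teeth, and the labels name molars and a column kit whereas the methods name incisors and TRIzol. Among the sample titles only those of WT carry the word molar, and those of Mmp13-/- name no tooth. Each library came from an independent biological sample, and the WT samples are numbered 2, 4 and 5 and the Mmp13-/- samples 1, 2 and 6.

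A keratin filament is built from pairs of an acidic type I and a basic type II chain, and the pair that a cell makes follows its place in the epithelium. Simple epithelia make Krt8 and Krt18 with Krt7, Krt19 or Krt20. The basal layer of stratified epithelium makes Krt5 and Krt14, cells that leave it switch to Krt1 and Krt10 in keratinizing epithelium or to Krt4 and Krt13 in the moist mucosa of the mouth, and hair keratins build the hair shaft and its inner root sheath. Dental pulp itself is a connective tissue of fibroblasts and odontoblasts, so abundant keratin RNA is not a feature of its resident cells. Keratin filaments are anchored to the cell membrane at desmosomes, between cells, and at hemidesmosomes, on the basement membrane.

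Of the 50 genes, 5 were grouped as simple keratins, 19 as keratins of stratified epithelium, 22 as hair keratins and 4 as other keratins, and 26 were type I and 24 type II. They lie in 2 compact clusters in the GENCODE M21 annotation of GRCm38, to which they were matched by Ensembl identifier. The cluster on chromosome 11 holds 25 members between 99232761 and 100269871, and that on chromosome 15 holds 25 between 101347444 and 102032027. Krt18, a type I gene, sits with the type II genes on chromosome 15.

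Levels are given as CPM, the count of a gene divided by its library total after TMM adjustment and put on a shared scale, and a library total was 28442936 to 29980236 counts in WT and 21561420 to 26547121 in Mmp13-/-. Mmp13 itself stood at 36.9, 39.2 and 30.2 CPM in WT against 0.32, 1.10 and 2.34 CPM in Mmp13-/- samples 1, 2 and 6, a log2 fold change of -4.96 (adjusted p = 7.67e-05, edgeR quasi-likelihood test). The libraries differed by genotype in other ways that touch the keratins. Reads on 1451 odorant and vomeronasal receptor genes, which neither pulp nor oral epithelium is known to use, summed to 18.2 to 21.5 CPM in WT and to 256.7, 315.3 and 1494.0 CPM in Mmp13-/- samples 1, 2 and 6. Sample 6 therefore stood apart, and the called or named keratin values that it moved by over 1.5 times are given without it as well. No marker of the cell type lists was at 0 in any library. For the counts of called markers below, 20.4% of all genes tested were called higher and 9.68% lower. The 9 odontoblast markers summed to 55397 to 62057 CPM in WT against 17393 to 23039 CPM in Mmp13-/-, where 3 were called higher and 2 lower. Most of that sum came from Col1a1 (35399 to 42196 CPM in WT) and Col1a2 (14382 to 18022 CPM in WT). These collagen genes were the 2 called lower. The 3 called higher were Dspp, Ibsp and Phex, with log2 fold changes of 1.13, 1.56 and 1.68. Of the skeletal muscle markers 7 of 8 were called lower, with sums of 44219 to 51635 CPM against 8614 to 19662 CPM, and of the erythroid and leukocyte markers 9 of 10 were called higher, with sums of 510.5 to 836.3 CPM against 1717 to 3521 CPM. Among ameloblast markers 1 of 7 was called higher (sums of 1505 to 4609 against 3795 to 5255 CPM) and among endothelial markers 1 of 5 lower (198.4 to 224.9 against 138.7 to 196.0 CPM). The part of these shifts in the keratin results was not tested. Fewer cells of a type and less RNA per cell cannot be told apart in bulk tissue, and no batch is named in the labels, so genotype and any library batch cannot be told apart either.

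Keratins of stratified epithelium were among the most abundant RNAs of these pulp libraries in both genotypes. The 50 genes took 0.630% of all counts in WT sample 2, 1.12% in sample 4 and 2.06% in sample 5. In Mmp13-/- they took 1.90% in sample 1, 0.496% in sample 2 and 0.911% in sample 6. The keratin load thus varied more than 3-fold within each genotype, and the genotypes overlapped. Nearly all of it came from stratified keratins, which summed to 6484, 11449 and 21345 CPM in WT and to 15842, 4364 and 11285 CPM in Mmp13-/-. The simple keratins together reached 6.40 to 6.57 CPM in WT and the hair keratins 6.91 to 9.67 CPM.

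Krt4 (ENSMUSG00000059668, chromosome 15, 101918535 to 101924735), the type II chain of moist oral epithelium, ranked between 10 and 42 among all genes by count in the 6 libraries. Its level was 2258.6, 2731.9 and 9232.9 CPM in WT and 6634.2, 1281.3 and 4484.0 CPM in Mmp13-/-. Krt13 (ENSMUSG00000044041, chromosome 11, 100117327 to 100121566), its type I partner, was at 1515.0, 2260.7 and 6499.7 CPM in WT and 6014.0, 1325.0 and 4180.6 CPM in Mmp13-/-. Both genes were highest in WT sample 5, next in Mmp13-/- sample 1, and lowest in Mmp13-/- sample 2, so the genotypes overlapped. The log2 fold change was -0.20 ± 0.63 (SE) for Krt4 and 0.16 ± 0.60 (SE) for Krt13, and neither passed the test (adjusted p = 0.814 and 0.838, edgeR). Without WT sample 5 the value for Krt4 became 0.65, and without Mmp13-/- sample 1 that for Krt13 became -0.39.

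The basal-layer pair fell in Mmp13-/-. Krt14 (ENSMUSG00000045545, chromosome 11, 100203162 to 100207548), the basal type I chain, was at 1321.4, 2932.4 and 2658.4 CPM in WT against 1079.5, 668.8 and 999.3 CPM in Mmp13-/-. Krt5 (ENSMUSG00000061527, chromosome 15, 101707070 to 101712898), its type II partner, was at 507.9, 966.2 and 880.0 CPM in WT against 382.4, 236.8 and 328.2 CPM in Mmp13-/-. Every Mmp13-/- library lay below every WT library for both genes, with WT sample 2 the nearest. Krt14 averaged 2304 ± 862 CPM (SD, n = 3) in WT and 915.9 ± 217.7 CPM (SD, n = 3) in Mmp13-/-, which gives -1.33 ± 0.33 as the log2 fold change (SE, adjusted p = 0.00744, edgeR). Krt5 averaged 784.7 ± 243.5 CPM (SD, n = 3) and 315.8 ± 73.6 CPM (SD, n = 3), a log2 fold change of -1.31 ± 0.28 (SE, adjusted p = 0.00345, edgeR). Both stayed called with each library left out in turn.

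The pair of the first suprabasal layers of keratinizing epithelium fell as well. Krt10 (ENSMUSG00000019761, chromosome 11, 99385254 to 99389364) was at 133.9, 509.6 and 331.4 CPM in WT against 164.5, 128.3 and 107.8 CPM in Mmp13-/-. Krt1 (ENSMUSG00000046834, chromosome 15, 101845426 to 101850794) was at 65.2, 233.2 and 154.9 CPM in WT against 76.6, 26.0 and 23.5 CPM in Mmp13-/-. In both genes WT sample 2 lay below Mmp13-/- sample 1, so the genotypes overlapped in these libraries. The log2 fold change was -1.28 ± 0.39 (SE, adjusted p = 0.0204) for Krt10 and -1.84 ± 0.52 (SE, adjusted p = 0.0134) for Krt1 by edgeR. Neither was called when WT sample 4 or Mmp13-/- sample 6 was left out.

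**Figure D1:**
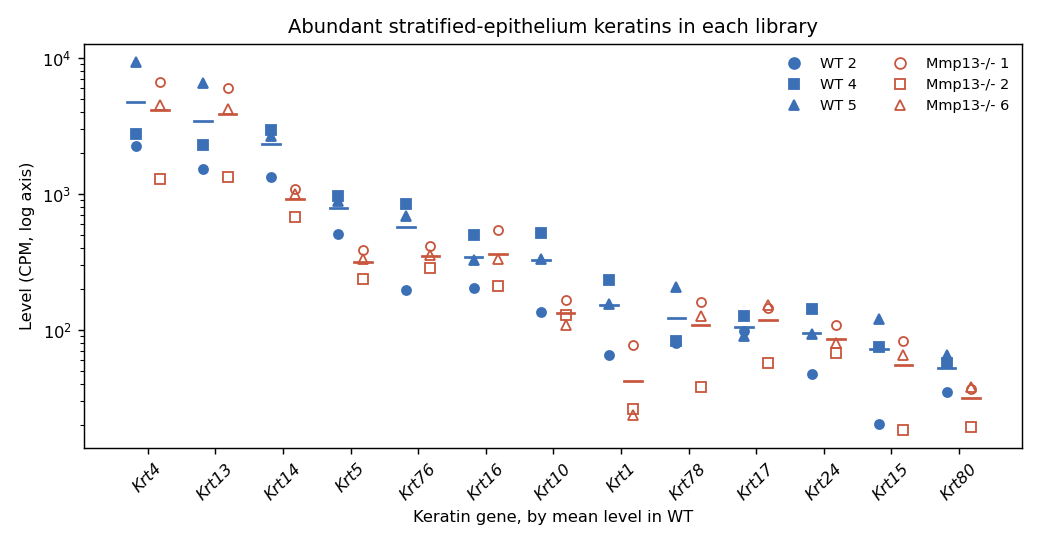
Levels of the 13 abundant stratified keratins in each library, in CPM on a log axis, with filled symbols for the 3 WT and open symbols for the 3 Mmp13-/- libraries and short lines for the means. Krt14 and Krt5 do not overlap between genotypes, Krt4 and Krt13 overlap, and Mmp13-/- sample 2 is the lowest of its genotype for 11 of the 13 genes.

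The other abundant stratified keratins were not called. Here abundant means a mean over 10 CPM across the genotypes, a limit set after the values were seen, and 13 of the 19 stratified keratins pass it, of which 4 fell and 9 were not called. Krt76, a type II chain of the oral mucosa and hard palate, was at 197.2, 833.9 and 683.1 CPM in WT against 410.9, 286.4 and 353.3 CPM in Mmp13-/- (log2 fold change -0.71 ± 0.42 SE, adjusted p = 0.188, edgeR). Krt80 had a log2 fold change of -0.75 ± 0.29 (SE, adjusted p = 0.0515, edgeR), a change of less than 2-fold. With a correction for GC content its value was -0.18. The stress-inducible chains Krt16 and Krt17 had log2 fold changes of 0.09 and 0.17, which became 0.87 and 1.17 with a correction for GC content, where Krt17 was called higher (adjusted p = 0.0288, edgeR). The value was -0.37 for Krt15, a basal chain that marks slowly dividing cells. Krt24 and Krt78 stood at -0.14 and -0.19. Krt6a and Krt6b, letter-suffixed partners of Krt16 that fall outside the symbol rule, were at 740.6 to 1929.0 and 599.3 to 1459.6 CPM in WT against 621.3 to 1188.9 and 550.5 to 1099.7 CPM in Mmp13-/-, with log2 fold changes of -0.51 and -0.39 and no call. Krt6a and Krt6b share 45.7% and 50.1% of their 50-base transcript words with other genes, mostly with each other, so counts could pass between them. The shares were 37.6% for Krt16 and 13.9% for Krt14, and 8.5% for Krt5.

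The low-count filter, at 0.364 CPM in at least 3 libraries, passed 33 of the 50 keratins, and 13 of these 33 were called at an adjusted p under 0.05 and a change over 2-fold. Among all 24534 genes tested 30.1% were called. In Mmp13-/-, 8 keratins were higher, against 20.4% of all genes, and 5 were lower, against 9.68% of all genes. At any fold, 8 were higher and 6 lower at an adjusted p under 0.05, and 51.6% of all genes passed that rule. The groups did not overlap for 13 of the 33 keratins and for 60.9% of all genes, with 9 keratins higher and 4 lower in Mmp13-/- against 31.8% and 29.1% of all genes. The median log2 fold change was 0.17 over the tested keratins and 0.10 over all genes. Of the 33, 7 had all Mmp13-/- libraries but fewer than 3 WT libraries above the filter level, and so owed their place in the test to the genotype in which they were higher. They were Krt2, with 2 WT libraries above it, Krt73, with 1, and Krt9, Krt71, Krt77, Krt79 and Krt86, with 0, and all but Krt79 are among the 8 called higher. The other 26 gave 2 higher and 5 lower. By type, 2 of the 16 type I keratins tested were higher and 3 lower, and 6 of the 17 type II keratins tested were higher and 2 lower. The genes that owed their place to Mmp13-/- make up most of these rises, Krt9 in type I and Krt2, Krt71, Krt73, Krt77 and Krt86 in type II. Without them Krt18 in type I and Krt7 in type II remain, so the split is not read as a difference between types. Krt42, a type I chain, completed the 5 that fell, at 13.8, 13.2 and 14.3 CPM in WT and 2.53, 4.15 and 9.19 CPM in Mmp13-/- (log2 fold change -1.41 ± 0.37 SE, adjusted p = 0.0097, edgeR), and the log2 fold change was -2.04 without sample 6.

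**Figure D2:**
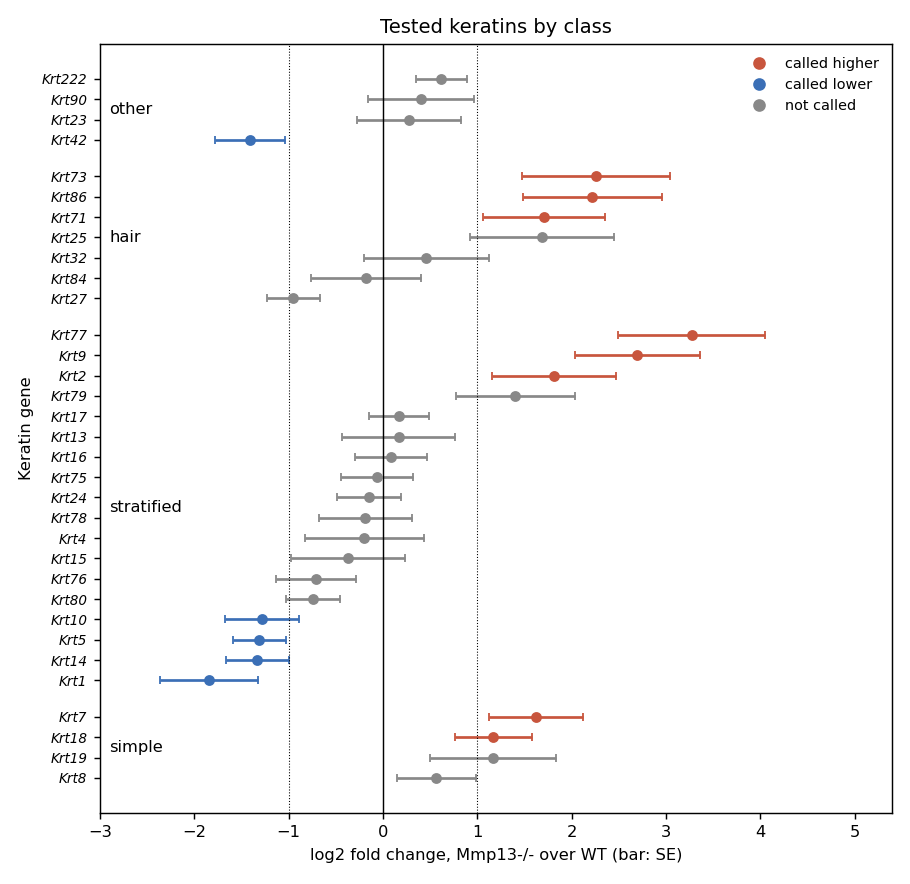
Log2 fold change of Mmp13-/- over WT for the 33 tested keratins, grouped by class, with SE bars and dotted lines at a 2-fold change. The 4 simple keratins tested lie above 0, and the abundant stratified genes lie mostly below it. Of the 5 scarce stratified genes tested, 4 passed the filter through their Mmp13-/- levels. The same holds for the 3 of 7 hair keratins called higher, so the filter favoured values above 0 in these genes.

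The 5 falls were not called after a correction for the GC content of the transcripts. Keratin transcripts ranged from 41.9% to 59.3% GC, with a median of 54.8% over those tested against 49.1% over all genes tested. When each library was corrected for GC content, 0 of the 33 were called lower in edgeR and 1, Krt1, was lower at an unadjusted p under 0.05, while the genes called lower across the whole table fell from 2375 to 746. The corrected log2 fold change was -0.44 for Krt5, -0.43 for Krt14, -0.67 for Krt10, -0.38 for Krt42 and -1.52 for Krt1, the last with an adjusted p of 0.0502. The direction of all 5 was kept. The same correction gave 10 keratins higher in place of 8, among them Krt17 and Krt8 (log2 fold change 1.46, adjusted p = 0.0459, edgeR). The share of higher among keratin calls thus went from 8 of 13 to 10 of 10. Among all 24534 genes tested it went from 5006 of 7381 calls to 4008 of 4754, so the shift toward higher calls was not particular to keratins. After subtraction of the receptor-gene background from every gene, all 5 were still called.

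Ratios between keratins in the same library do not depend on scaling between libraries, and they were taken per kilobase of exon. Krt5 over Krt14 was 0.31, 0.26 and 0.26 in WT against 0.28, 0.28 and 0.26 in Mmp13-/-. The basal partners kept a near constant ratio in all 6 libraries although their levels differed several-fold. Krt4 over Krt13 was 1.27, 1.03 and 1.21 in WT and 0.94, 0.83 and 0.92 in Mmp13-/-, and Krt6a over Krt16 was 2.37, 2.53 and 2.73 against 1.42, 1.94 and 2.02. These were the 2 of 10 ratios computed in which the genotypes did not overlap, and an exact two-sided permutation test of 3 against 3 cannot go below p = 0.1. Krt1 over Krt10 was 0.23, 0.22 and 0.22 in WT and 0.22 in Mmp13-/- sample 1, but 0.10 in Mmp13-/- samples 2 and 6.

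**Figure D3:**
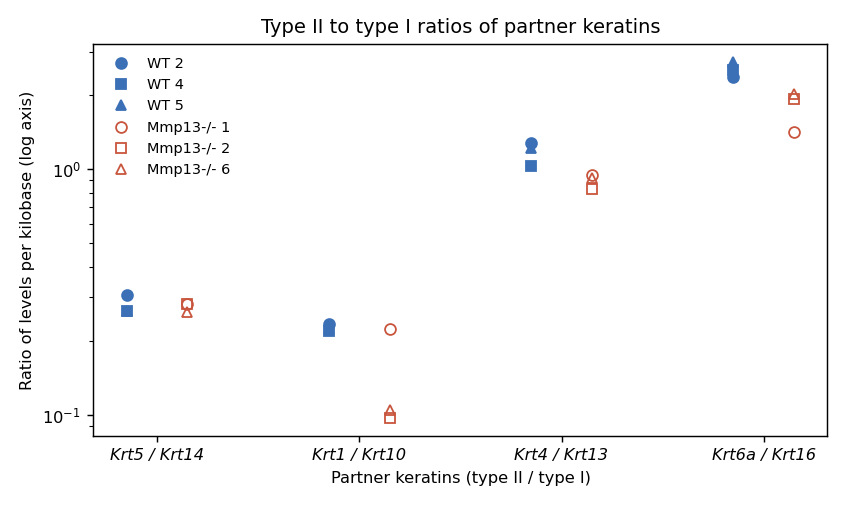
Ratio of the type II to the type I level per kilobase for 4 pairs of partner keratins in each library, on a log axis. Krt5 over Krt14 lies between 0.26 and 0.31 in all 6 libraries, and Krt4 over Krt13 lies at 1.03 or above in WT and at 0.94 or below in Mmp13-/-.

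The make-up of the keratin RNA differed between libraries. Krt4 and Krt13 made up 57.4%, 43.2% and 73.5% of the summed level per kilobase of the 13 abundant keratins in WT and 79.5%, 59.4% and 76.4% in Mmp13-/-. Krt5 and Krt14 made up 29.8%, 36.1% and 17.8% in WT against 9.76%, 21.8% and 12.5% in Mmp13-/-. The basal share was lowest in the libraries with the most Krt4 and Krt13, WT sample 5 and Mmp13-/- samples 1 and 6. Both shares are parts of the same sum, so more Krt4 and Krt13 leaves a smaller share for the basal pair. The genotypes overlapped in both shares. Krt1 and Krt10 together made up 2.37%, 5.04% and 1.78% in WT and 1.18%, 2.98% and 0.978% in Mmp13-/-. Of the 13 genes, 12 had their lowest WT level in sample 2, and 11 had their highest Mmp13-/- level in sample 1.

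**Figure D4:**
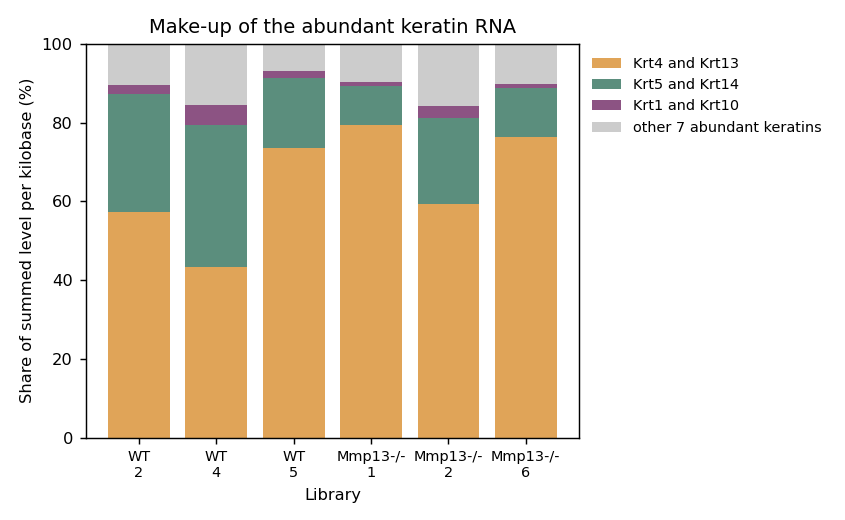
Share of the summed level per kilobase of the 13 abundant keratins held by 3 partner pairs and by the other 7 genes, in each library. Krt4 and Krt13 hold 43.2% to 73.5% in WT and 59.4% to 79.5% in Mmp13-/-. Krt5 and Krt14 hold 17.8% to 36.1% in WT and 9.76% to 21.8% in Mmp13-/-, and the genotypes overlap in both shares.

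By level per kilobase the same 3 keratins led the members in both genotypes, and the ranks below are among the members only. Krt4 led in WT with 2223 ± 1827 CPM per kilobase (SD, n = 3), followed by Krt13 with 1881 ± 1476 and Krt14 with 1311 ± 490. Their WT values overlapped from Krt4 to Krt13 and from Krt13 to Krt14, whereas Krt14 lay apart from Krt5, which followed with 357.2 ± 110.8. Krt6a and Krt6b, outside the symbol rule, had WT means of 557.4 and 462.6 CPM per kilobase, between those of Krt14 and Krt5. In Mmp13-/- Krt13 led with 2109 ± 1298 CPM per kilobase (SD, n = 3) and Krt4 followed with 1938 ± 1263, and Krt5 stood 6th behind Krt76 and Krt16. Below Krt42, the 15th gene of the WT order, no keratin had a WT mean over 3 CPM per kilobase.

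Short stretches before the start sites are shown to compare keratins that fell with keratins that were not called. The RefSeq promoter table (GRCm38.p6) held 35 of the 50 members, and in 32 its start lay within 100 bases of the annotated gene start. The motifs were chosen after the sequences were seen. ATAAA, the core of a TATA-like box, stood on the sense strand within the last 50 bases before the start in 21 of these 32 keratins and in 6.57% of the 32851 promoters in the table. On the opposite strand it stood in 0 of the 32 and in 4.09% of all promoters. By class it was present in 7 of 12 stratified, 12 of 15 hair, 1 of 2 simple and 1 of 3 other keratins. TGANTCA, an AP-1 motif whose reverse strand reads the same, was present within 250 bases before the start in 1 of the 32, Krt13, and in 6.75% of all promoters. The last 100 bases before the start are shown 5′ to 3′ for a basal and a suprabasal gene that fell, Krt5 and Krt10, and for a pair of mucosal genes that were not called, Krt13 and Krt76, all read from the minus strand, with ATAAA in capitals.
Krt5 (chr15:101712906-101713005, minus strand): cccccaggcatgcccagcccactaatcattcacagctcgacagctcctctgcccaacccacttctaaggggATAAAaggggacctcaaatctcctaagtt
Krt10 (chr11:99389365-99389464, minus strand): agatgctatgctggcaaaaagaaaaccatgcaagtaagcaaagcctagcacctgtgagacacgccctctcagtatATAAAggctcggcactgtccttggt
Krt13 (chr11:100121567-100121666, minus strand): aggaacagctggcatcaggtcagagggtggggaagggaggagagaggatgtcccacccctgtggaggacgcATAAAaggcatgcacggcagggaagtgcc
Krt76 (chr15:101892921-101893020, minus strand): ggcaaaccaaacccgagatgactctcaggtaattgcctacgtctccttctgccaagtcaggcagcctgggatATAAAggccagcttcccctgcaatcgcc
ATAAA began 29 bases before the start in Krt5 and Krt13, 28 in Krt76 and 25 in Krt10. These 4 were chosen among genes that carry the motif. Of the 13 abundant stratified keratins 6 have a promoter within the 100 bases, and 5 of these carry it, all but Krt24. Of the 3 keratins called lower with such a promoter 2 carry it and Krt42 does not.

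Simple keratins were scarce, and 2 of the 4 tested were called higher in Mmp13-/-, where 20.4% of all genes were. Krt18 (ENSMUSG00000023043), the type I chain of simple epithelium, was at 1.76, 1.24 and 1.75 CPM in WT against 1.80, 3.10 and 5.96 CPM in Mmp13-/- samples 1, 2 and 6 (log2 fold change 1.17 ± 0.41 SE, adjusted p = 0.0356, edgeR). Krt7 (ENSMUSG00000023039), a type II chain of ductal and glandular epithelium, was at 1.08, 1.92 and 1.80 CPM in WT against 3.07, 2.43 and 9.48 CPM in Mmp13-/- (log2 fold change 1.62 ± 0.49 SE, adjusted p = 0.0198, edgeR). Mmp13-/- sample 6 was the highest in both genes, and without it the log2 fold changes were 0.63 for Krt18 and 0.79 for Krt7 and neither was called. Of the 6 fits that left out a library, Krt7 stayed called in 4 and Krt18 in 2, and neither was called without WT sample 2. Sample 6 was also the highest library for Krt8 and Krt19, whose genotypes overlapped. Krt8, the partner of Krt18, was at 2.97, 2.67 and 1.83 CPM in WT against 2.42, 2.24 and 6.68 CPM in Mmp13-/-, and its log2 fold change of 0.57 ± 0.42 (SE) turned to -0.10 without sample 6. Krt19 had a log2 fold change of 1.17 ± 0.67 (SE, adjusted p = 0.169, edgeR), and of 0.31 without sample 6. Krt20, a chain of gut and urinary epithelium, did not pass the filter, with 1.3 to 6.0 counts in WT libraries and 5.2 to 20.3 in Mmp13-/-. Krt8 shares 26.9% of its 50-base words with other genes, mostly its pseudogene Krt8-ps.

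Of the 22 hair keratins 7 passed the filter, 3 were called higher and 0 lower by edgeR, with 1 lower at an unadjusted p under 0.05. The 3, Krt71, Krt73 and Krt86, entered the test only because of their Mmp13-/- levels, so that their count is not set against the 20.4% of all genes called higher. Krt71 and Krt73, type II chains of the inner root sheath, had summed counts of 17 and 17 over the WT libraries and of 47 and 72 over the Mmp13-/- libraries. The normalized ratios were 3.00 (95% interval 1.69 to 5.58) and 4.60 (2.68 to 8.32), and these intervals cover counting error only. Krt86, a type II chain of the hair shaft, rose from 8 summed counts to 34, a ratio of 4.61 (2.10 to 11.5), and shares 43.3% of its 50-base words with other genes, mostly Krt81. Krt27, an inner root sheath chain, was the most abundant hair keratin, at 3.82, 5.10 and 3.52 CPM in WT against 2.35, 1.48 and 2.69 CPM in Mmp13-/-. Its genotypes did not overlap, and its log2 fold change of -0.95 (adjusted p = 0.0178, edgeR) stayed inside the 2-fold limit. With a library left out, Krt73 stayed called in 2 of 6 fits, Krt86 in 1 and Krt71 in 0. Without sample 6 the log2 fold change went from 2.26 to 1.59 for Krt73 and from 1.71 to 1.13 for Krt71. Krt25, Krt32 and Krt84, at 1.68, 0.46 and -0.18 on the log2 scale, were not called, and Krt32 and Krt84 were at -0.32 and -1.12 without sample 6.

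The other 15 hair keratins did not pass the filter, and those with the most counts were Krt26, Krt35 and Krt72. Krt26 had 0 counts in every WT library and 8.9, 11.7 and 35.3 in Mmp13-/-. This was at least 8.60-fold higher against a floor of 3 counts per library. Without sample 6 it was at least 3.20-fold higher, a value added after the data were seen. Per kilobase, Krt26 lay at only 1.62, 1.82 and 2.01 times the receptor-gene rate of Mmp13-/- samples 1, 2 and 6. These bounds do not take off that rate. Krt39, Krt40 and Krt88 also had 0 counts in WT, with 19, 16 and 17 summed over the Mmp13-/- libraries. Krt35 had 0 to 7.3 counts in WT and 5.4 to 22.6 in Mmp13-/-, and Krt72 had 0 to 2.1 and 7.0 to 24.8. In 13 of the 50 members every WT library was at or under the floor of 3 counts. Krt33a, a letter-suffixed hair keratin outside the symbol rule, had at most 0.1 counts in a WT library and 11.4 to 18.4 in Mmp13-/-.

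The 6 scarce stratified keratins resembled the hair class in level. Krt9, the chain of palm and sole epidermis, had 23 summed counts in WT and 117 in Mmp13-/-, a ratio of 5.52 (95% counting interval 3.51 to 9.05), with a log2 fold change of 2.70 (adjusted p = 0.00695, edgeR) that became 1.91 without sample 6. Krt77, a chain of sweat gland ducts, rose from 8 to 64 summed counts, a ratio of 8.69 (4.15 to 21.0), and Krt2, a chain of upper epidermal layers, from 29 to 84, a ratio of 3.14 (2.04 to 4.98). Krt9, Krt77 and Krt2 are among the genes that entered the test because of their Mmp13-/- levels, so their calls are given as a description. Without sample 6 the log2 fold change went from 3.27 to 2.38 for Krt77 and from 1.81 to 1.13 for Krt2, and Krt2 was then not called. Krt79 (1.40) and Krt75 (-0.06) were not called. Krt12, the chain of corneal epithelium, did not pass the filter, with at most 2.3 counts in a WT library and 6.2 to 13.4 in Mmp13-/-. All 8 keratins called higher had WT means of 0.0884 to 1.60 CPM, whereas the 5 called lower had WT means of 13.8 to 2304 CPM.

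The Mmp13-/- library with the most reads on scarce keratins was also the one with the most receptor reads, whose part in these rises was not tested. The simple keratins summed to 8.73, 8.50 and 26.5 CPM in Mmp13-/- samples 1, 2 and 6 and the hair keratins to 11.5, 7.46 and 29.4 CPM. Sample 6 was highest in both and in receptor reads, whereas sample 2 held more receptor reads than sample 1 but less of both keratin classes. The simple keratins summed higher in every Mmp13-/- library than in any WT library, and the hair keratins overlapped. Among the receptor genes 163 of the 176 tested were called higher, with a median log2 fold change of 7.12. Of the 1451 receptor genes only these 176 passed the filter. WT reads on them were few, so the filter favoured genes high in Mmp13-/- and the count is a description. With at least 10 counts in every sample 9 were tested and 4 were called higher, with a median of 0.96. The keratin-associated protein (Krtap) genes, which are made in the hair shaft, summed to 1.63 to 3.10 CPM in WT and to 8.01, 10.2 and 35.4 CPM in Mmp13-/-. Per kilobase, the 6 called genes that owed their test to the Mmp13-/- libraries lay at 1.15 to 7.82 times the receptor rate of the same Mmp13-/- library. After subtraction of that rate in proportion to exon length, 4 of the 8 were called, Krt7, Krt9, Krt18 and Krt73. Krt71, Krt77 and Krt86 then did not pass the filter and were not tested. Krt2 was tested and not called, with a log2 fold change of 1.60. Without sample 6, 4 keratins were called higher, Krt9, Krt12, Krt77 and Krt86.

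**Figure D5:**
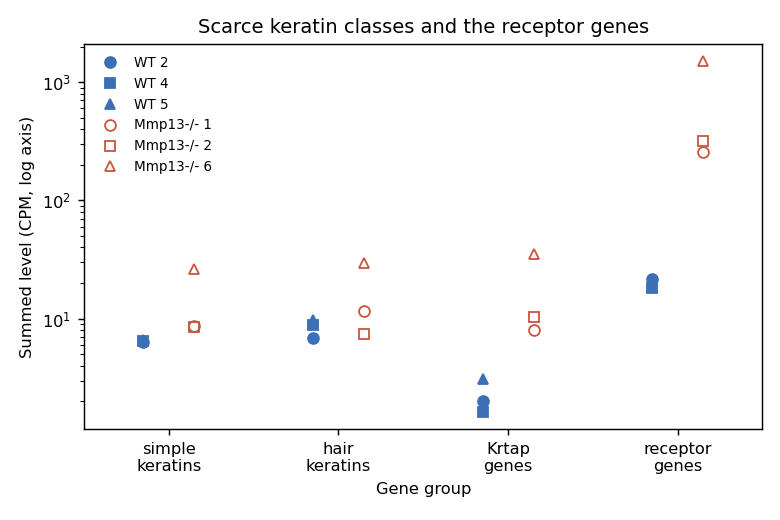
Summed level of the simple keratins, hair keratins, Krtap genes and receptor genes in each library in CPM, on a log axis, with filled symbols for WT and open symbols for Mmp13-/-. Mmp13-/- sample 6 is the highest library in every group, and the hair keratins overlap between genotypes.

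Among other keratins, Krt23, Krt90 and Krt222 were not called, with log2 fold changes of 0.28, 0.40 and 0.62, and Krt90 was at -0.48 without sample 6. Krt222 was the steadiest of them, at 1.75, 2.04 and 1.44 CPM in WT against 2.35, 2.84 and 2.82 CPM in Mmp13-/-.

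Part of the genes that anchor keratins to the basement membrane fell. Of the 9 hemidesmosome genes tested 3 were called lower, against 9.68% of all genes, and 0 higher, against 20.4%, by edgeR, with 0 higher at an unadjusted p under 0.05. The median log2 fold change was -0.73, against 0.10 over all genes. Plec, the plectin that ties keratin filaments to the membrane, was at 2634.1 to 3265.8 CPM in WT and 714.2 to 890.0 CPM in Mmp13-/- (log2 fold change -1.84, adjusted p = 0.000225, edgeR). Col17a1, the transmembrane collagen XVII, had a log2 fold change of -1.46 (adjusted p = 0.000411) and Itgb4, the integrin beta 4 chain, of -1.34 (adjusted p = 0.000313). Dst and Itga6, with -0.73 and -0.59, passed the adjusted p but not the 2-fold limit. Plec and Dst are also expressed in muscle, whose markers fell in the same libraries, and the part of muscle in these values was not tested. With the GC correction 0 of the 9 were called by edgeR, and 4 were lower and 2 higher at an unadjusted p under 0.05. Of all 24534 genes tested, 4084 were lower and 7532 higher by that rule.

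The cell-to-cell anchor genes gave 2 calls among the 15 desmosome genes, where 30.1% of all genes were called, and their median log2 fold change was 0.22. Dsg4, the hair follicle cadherin, was called higher from WT levels under the filter (0 to 0.168 CPM). Jup, a plaque protein, was called lower (log2 fold change -1.01, adjusted p = 0.0119, edgeR), and its value became -0.017 with the GC correction. Desmoplakin (Dsp), which binds keratin filaments, was at 836.3 to 1873.8 CPM in WT and 615.0 to 1419.4 CPM in Mmp13-/-, and was not called (log2 fold change -0.48). Pkp1, Perp and Dsc2 had values of -0.63, 0.18 and 0.32, and Dsc3 had 0.70 with an adjusted p of 0.0158. Among 17 cornified envelope genes Flg, the filaggrin precursor, fell (log2 fold change -2.24, adjusted p = 0.000774), and Krtdap, a protein of differentiating keratinocytes, rose (1.60, adjusted p = 0.0233, both by edgeR). The value for Flg became -1.05 with the GC correction, and Krtdap was not called without sample 6. Tgm3, Hrnr, Evpl and Ppl, with 1.05, -0.20, -0.80 and -0.48, were not called.

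General markers of epithelium were called lower about as often as all genes. Of 22 epithelial adhesion genes and regulators 2 were called lower, against 9.68% of all genes, and 0 higher by edgeR, against 20.4%. At any fold 6 were lower at an adjusted p under 0.05, as were 5955 of all 24534 genes tested. At an unadjusted p under 0.05 7 were lower and 0 higher, against 6573 and 7579 of all genes. A negative log2 fold change was found in 18 of the 22, with a median of -0.39, and in 11306 of all genes. Without sample 6, 5 were called lower, and with the GC correction 0 were. Cdh3, the P-cadherin of basal cells, was among those that fell (log2 fold change -1.17, and -0.69 with the GC correction). Cdh1, the E-cadherin of all epithelia, was at 60.2, 85.6 and 91.7 CPM in WT against 77.0, 44.5 and 61.3 CPM in Mmp13-/- (log2 fold change -0.38, adjusted p = 0.184, edgeR). Trp63, the regulator of stratified epithelium, was at 59.2, 72.6 and 80.8 CPM in WT against 73.7, 55.2 and 58.8 CPM in Mmp13-/- (-0.18, adjusted p = 0.403). Both overlapped between genotypes. Sfn, the stratifin of keratinocytes, had a log2 fold change of -0.94 (adjusted p = 0.0517, edgeR).

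The intermediate filaments of other tissues gave 3 higher and 5 lower among the 15 tested, where 20.4% and 9.68% of all genes were called. The neuronal chains Nefm, Nefh and Ina were called higher from WT levels under the filter, at most 0.073, 0.355 and 0.138 CPM, and so were tested through the Mmp13-/- libraries alone. All of them were highest in sample 6, at 3.33, 3.40 and 1.41 CPM, the library with the most receptor reads. Des, the desmin of muscle, fell by 1.96 on the log2 scale, and its muscle partners Synm and Sync fell by 1.74 and 1.81. Lmna, the nuclear lamin, fell by 1.04, and Nes, the nestin of precursor cells and odontoblasts, by 1.21. With the GC correction these became -0.47 and -0.48 and were not called, whereas Des, Synm and Sync stayed called at -1.15, -1.35 and -1.18. Vim, the vimentin of mesenchymal cells, was at 518.6 to 549.6 CPM in WT and 347.0 to 444.6 CPM in Mmp13-/- (log2 fold change -0.44, adjusted p = 0.0609, edgeR).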

How the data were processed

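RNA-seq of dental pulp from 3 WT and 3 Mmp13-/- mice was analysed. The authors made an estimated count for each gene in Strand NGS from paired reads and deposited it without normalization. The submitters' processing notes name mm10 and DESeq, and the aligner's settings and the handling of strand are not given in the sources used here. The deposited log2 values, scaled by size factors, thresholded at 1 and centred per gene by the authors, were equal within 0.01 to values recomputed from the counts for 100% of genes.

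After rounding, counts were tested with edgeR 4.0.16 in R 4.3.3 (quasi-likelihood test, TMM factors, filterByExpr by genotype, Benjamini-Hochberg adjustment over 24534 genes, no covariates). A gene was called at an adjusted p under 0.05 and a change over 2-fold. DESeq2 1.42.0 and limma 3.58.1 on the log2 values were alternatives, as were other factors and filters, each library left out, a GC correction (loess, span 0.4, genes above a log2 CPM of 3) and subtraction of the receptor-gene rate per kilobase. Positions, exon lengths and GC content came from GENCODE M21, which matched 99.8% of genes. On simulated data, with the same spread for every gene, a gene passed at an adjusted p under 0.05 at any fold. There edgeR passed 58% of genes changed 2-fold, 94% of those changed 4-fold and 0.0123% of unchanged genes among 24534. Keratins that varied more between libraries, such as Krt4, were not simulated. Counts per library were 21561420 to 29980236, and floors and intervals cover counting error only.

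The members, classes and lists were chosen with earlier results of these data known. Named genes are all simple keratins, the other keratins that passed the filter, the 3 with the most counts among those of the stratified and hair classes that did not, Mmp13, and in each list the 4 genes with the highest mean level and the 2 with the smallest adjusted p. Members of the other lists that the rule does not take, and Krt39, Krt40 and Krt88, were named after their values were seen. A gene of the epithelial list that the rule takes is not reported here.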

Additional observations from a re-analysis of the deposited data

How the results depend on the processing

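Each count and log2 fold change was recomputed with RLE factors, upper-quartile factors, library totals without factors, 2 other filters, DESeq2, limma on the deposited log2 values, the GC correction, the background subtraction and each library left out in turn. Mmp13 stayed called in every fit made. The 8 keratins higher became 18 without a filter, 16 with DESeq2, 13 with limma, 4 after background subtraction and 2 with at least 10 counts in every sample, and 4 to 10 with a library left out. Those 2 were the only ones of the 8 tested with at least 10 counts in every sample. After background subtraction Krt71, Krt77 and Krt86 were not tested. The 5 lower became 1 with limma and 0 with the GC correction (1 at an unadjusted p under 0.05), and 3 to 8 with a library left out, the 3 without WT sample 4 and the 8 without WT sample 2. The 2 simple keratins called became 0 with limma and 0 to 3 with a library left out, with 0 without WT sample 2 or Mmp13-/- sample 6. The 7 stratified became 4 with limma, with the stricter filter and with the GC correction, and 4 to 8 with a library left out. The 3 hair keratins became 14 without a filter, 12 with DESeq2, 10 with limma, 1 after background subtraction and 0 with the stricter filter, under which few hair keratins were tested, and 2 to 8 with a library left out.

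Log2 fold changes that turned sign belonged to genes that were not called. With upper-quartile factors Krt24 became 0.061, Krt84 0.10, Krt75 0.19, Krt4 0.033, Krt78 0.047 and Trp63 0.030. With the GC correction Krt24 became 0.43, Krt15 0.39, Krt84 0.66, Krt75 0.64, Krt4 0.52, Krt78 0.68, Krt6b 0.24, Krt6a 0.16, Pkp1 0.00085, Dsc2 -0.15, Evpl 0.32, Ppl 0.19 and Sfn 0.12. Krt24 became 0.019 after background subtraction, Krt75 0.062 with the stricter filter, Krt16 -0.022 without a filter and Krt17 -0.0055 with limma. With a library left out the range was -0.79 to 0.65 for Krt4, -0.39 to 0.95 for Krt13, -0.89 to 0.14 for Krt15, -0.40 to 0.41 for Krt16, -0.071 to 0.44 for Krt17, -0.18 to 1.01 for Krt23, -0.54 to 0.24 for Krt24, -0.32 to 1.11 for Krt32, -0.49 to 0.17 for Krt75, -0.65 to 0.33 for Krt78, -0.10 to 0.77 for Krt8, -1.12 to 0.15 for Krt84, -0.48 to 0.78 for Krt90, -0.067 to 0.51 for Dsc2, -0.52 to 0.061 for Hrnr and -0.16 to 0.38 for Perp. Upper-quartile factors moved the median of all genes from 0.10 to 0.32 and the GC correction to 0.22, on the log2 scale. The causes were not tested.

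No paired analysis was possible because the genotypes share replicate number 2 alone. A floor of 3 counts equals 0.100 to 0.139 CPM in these libraries, and 15 of the 22 hair keratins had too few counts to be tested.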
